A study of Mus musculus with 6 samples.

Results

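The nuclear genes for the subunits of the mitochondrial respiratory chain were taken from the array table by name: every probe set with a single gene symbol beginning with Ndufa, Ndufb, Ndufc, Ndufs, Ndufv, Sdh, Uqcr, or Cox4 to Cox8. This gave 77 genes and 154 probe sets, out of 18193 genes and 45037 probe sets other than controls. They comprised 36 genes named for complex I, 4 for complex II, 8 for complex III, 17 for complex IV and 12 assembly factors (Ndufaf and Sdhaf genes), which the same prefixes catch although they are not subunits. Cox7a2l, likewise treated as no subunit, stayed among the 17 genes named for complex IV. A further 10 probe sets that list several symbols were left out, and with them Ndufs6 and Ndufa11, which had no probe set of their own. Cox7b had no row in the table used here.

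The material was choroid plexus epithelium, the secretory cell layer that makes cerebrospinal fluid, taken from whole brains of B10.PL mice, and the total RNA of each of 6 samples was hybridised to 1 oligonucleotide array. By their descriptions 3 were from RAG-/- mice, which lack a recombination-activating gene and so make no mature T or B cells, and 3 from wild type (WT) mice. The labels do not say which Rag gene was deleted, how old the mice were, or whether animals were pooled. A code in the titles joins the samples into 3 pairs of 1 RAG-/- and 1 WT sample. For pair 1 the descriptions say that the samples had been reversed and give the opposite genotypes to the titles, so all comparisons were made by description and by title. Arrays are named throughout by their description (RAG-/- and WT replicates 1 to 3, numbered by pair), and the title reading exchanges the genotypes of pair 1.

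The respiratory chain passes electrons from NADH through complex I and from succinate through complex II to ubiquinone, then through complex III and cytochrome c to complex IV, where oxygen is reduced. Complexes I, III and IV pump protons, and the gradient drives ATP synthase. The choroid plexus epithelium is rich in mitochondria, and its fluid secretion depends on the ATP-driven sodium pump. Several complex IV subunits exist as pairs of isoforms, one made in most tissues and another in heart and skeletal muscle, lung or testis.

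Values are given as log2(intensity + 16) after quantile normalization, and a gene is represented by its brightest probe set. Of the members, 74 genes and 139 probe sets passed a filter that left out the dimmest 40% of probe sets, which kept 13537 genes and 27022 probe sets in all; Ndufa4l2, Ndufb4 and Cox7b2 did not pass. The arrays correlated with each other at 0.853 to 0.969 over probe sets, and RAG-/- replicate 2 stood farthest apart, at 106 on a first principal component that held 48.4% of the variance, with the other 5 arrays between -69.3 and 31.2. All 10 markers of choroid plexus epithelium were bright, at the 95.9th percentile or above, and their mean was 13.76, 12.80 and 13.67 in the RAG-/- samples, against 13.53, 13.69 and 13.57 in the WT samples. The mean of 8 neuronal markers was 10.62, 12.20 and 9.13 in the RAG-/- samples and 10.67, 11.15 and 9.71 in the WT samples, highest in pair 2 and lowest in pair 3. In bulk samples, fewer cells of a type and less RNA per cell cannot be told apart. Rag1, dim on all arrays, read 4.60, 6.92 and 6.31 in the RAG-/- samples and 6.54, 4.16 and 4.35 in the WT samples, so by description it was lower in the RAG-/- sample of pair 1 only. By title it was 6.54, 6.92 and 6.31 in the RAG-/- samples and 4.60, 4.16 and 4.35 in the WT samples, higher on every RAG-/- array. Rag1 was below the filter and was not tested, and the labels do not say whether it was the gene deleted.

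Most subunit genes were among the brightest on the arrays. The brightest probe set lay above the 95th percentile of brightness for 48 of the 77 genes, against 1538 of the 13537 genes tested, and the members' median percentile was 97.6, against 77.1 for all genes tested. Brightness also depends on each probe set's affinity, so these ranks describe the probes and are not transcript levels. Complex I had a median percentile of 98.3 with 30 of 36 genes above the 95th, complex III one of 97.9 with 7 of 8, and complex II one of 96.6 with 2 of 4. Complex IV had a median of 91.7, with 8 of its 17 genes above the 95th percentile and 8 below the 80th. The 12 assembly factors lay between the 75th and 95.1st percentiles with a median of 85.5.

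**Figure D1:**
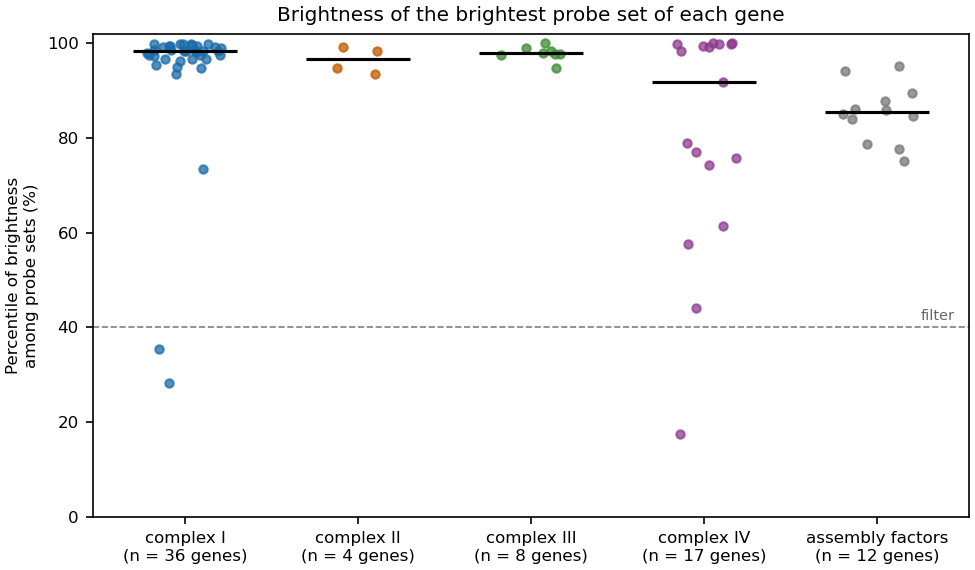
Percentile of brightness of the brightest probe set of each member gene among all probe sets other than controls (vertical axis, percent), by complex and for assembly factors; each point is 1 gene. Complexes I, II and III sit near the top apart from a few dim probe sets, complex IV splits into bright and dim genes, and assembly factors lie between the 75th and 95.1st percentiles.

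Within complex I the brightest was Ndufa1, an accessory membrane-arm subunit, at the 99.9th percentile, with 14.54, 14.46 and 14.54 in the RAG-/- samples and 14.50, 14.65 and 14.58 in the WT samples. The dimmest was Ndufb4, another accessory subunit, at the 28.1st percentile, with 6.01, 6.02 and 5.61 in the RAG-/- samples and 5.12, 6.07 and 4.31 in the WT samples. A probe set that lists Ndufb4 together with its near-identical copies Ndufb4b and Ndufb4c lay at the 98.1st percentile, so the dim value belongs to 1 probe set and not to all probes for this subunit.

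Sdha, the flavoprotein of complex II that oxidises succinate, was the brightest of its complex at the 99.2nd percentile, with 13.81, 13.89 and 13.40 in the RAG-/- samples and 13.37, 13.81 and 13.37 in the WT samples. Sdhc, a membrane anchor, was the dimmest at the 93.6th, with 12.03, 10.91 and 10.89 in the RAG-/- samples and 11.56, 11.79 and 10.99 in the WT samples. The groups overlapped for both.

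Uqcrb, a ubiquinone-binding subunit of complex III, was the brightest member of all. Its deposited intensities were 36400, 29107 and 39167 in the RAG-/- samples and 31449, 36016 and 39313 in the WT samples. Normalization brought 5 arrays to 15.10 and RAG-/- replicate 2 to 15.03, so this probe set could show no difference between those 5 arrays. How far normalization compresses differences at the top of the scale was not measured. The dimmest of complex III was Uqcr10, a small subunit, with 11.88, 11.02 and 11.72 in the RAG-/- samples and 12.14, 11.52 and 11.66 in the WT samples, at the 94.8th percentile.

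The complex IV genes divided by isoform. For subunits VIa, VIb and VIIa and for subunit IV, the widely expressed isoforms Cox6a1, Cox6b1, Cox7a2 and Cox4i1 were at or above the 99.8th percentile, and the tissue-restricted isoforms Cox6a2, Cox6b2, Cox7a1 and Cox4i2 lay between the 44.1st and 79.0th. Cox6b1 was the brightest of the complex at the 100th percentile after rounding. Cox8a, the widely expressed subunit VIII, was at the 91.7th percentile, and its muscle-type partner Cox8b at the 74.2nd. Not all dim genes were restricted isoforms: Cox7c, a subunit found in all tissues, had its brightest probe set at the 61.4th percentile.

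**Figure D2:**
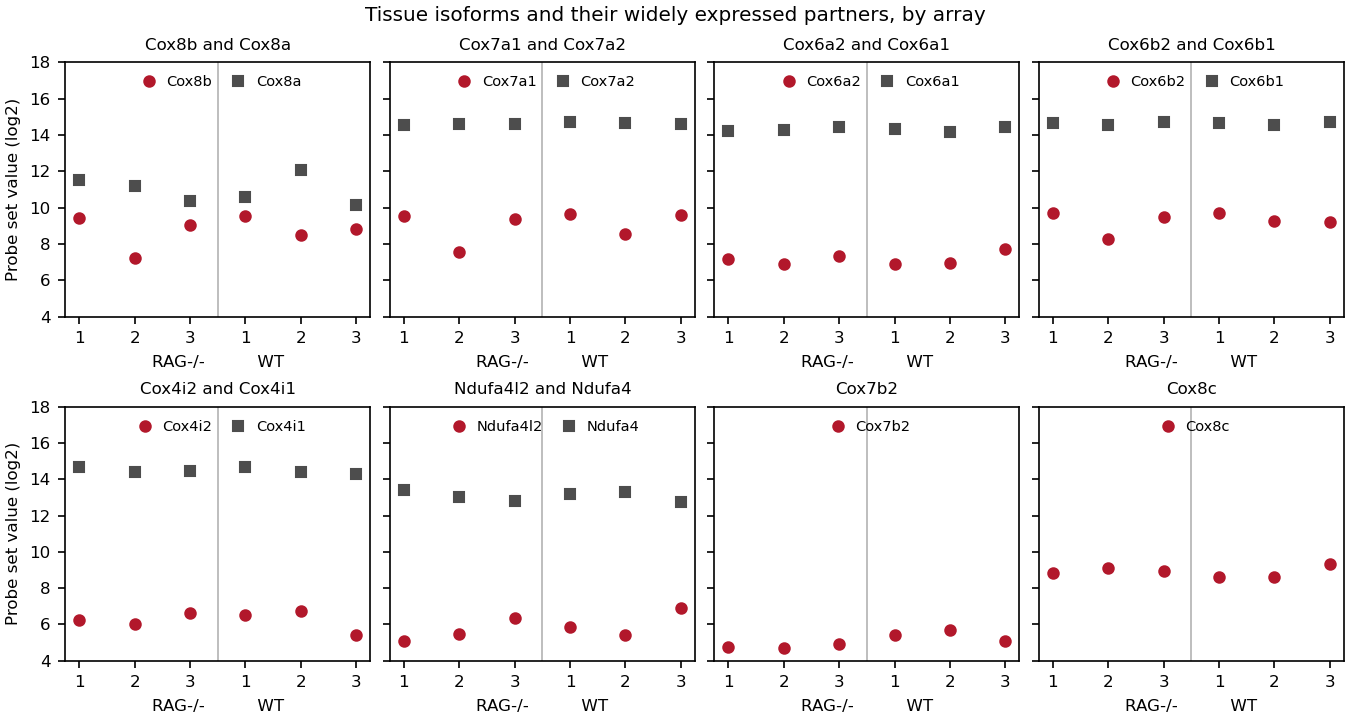
Probe set value (log2) of each tissue isoform and its widely expressed partner on the 6 arrays, with the RAG-/- arrays at the left and the WT arrays at the right of each panel. Cox8b and Cox7a1 are lowest on RAG-/- replicate 2 (7.22 and 7.54). The brightest probe sets of Cox6a1, Cox6b1, Cox7a2 and Cox4i1, shown here, vary little between arrays, at a brightness where normalization may compress differences. Dimmer probe sets of Cox6a1, Cox6b1 and Cox7a2, not shown, gave -1.10, -0.28 and -0.48 for pair 3 minus the other arrays.

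Cox8b, the heart and skeletal muscle isoform of subunit VIII, read 9.40, 7.22 and 9.02 in the RAG-/- samples and 9.51, 8.50 and 8.84 in the WT samples. Its deposited intensities were 659.7, 144.6 and 459.6 in the RAG-/- samples and 736.4, 358.2 and 416.1 in the WT samples. RAG-/- replicate 2 was lowest and the other RAG-/- arrays lay within the WT range. The mean was 8.54 ± 1.17 in RAG-/- and 8.95 ± 0.51 in WT (SD, n = 3 each), a difference of -0.41 with a standard error of 0.58 (limma, adjusted p = 1.0). The difference was 0.26 without RAG-/- replicate 2 and -0.33 by title.

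Cox7a1, the heart and muscle isoform of subunit VIIa, followed the same order of arrays at its extremes. It read 9.53, 7.54 and 9.35 in the RAG-/- samples and 9.67, 8.52 and 9.58 in the WT samples, with both arrays of pair 2 lowest. The mean was 8.81 ± 1.10 in RAG-/- and 9.26 ± 0.64 in WT (SD, n = 3 each), and the difference of -0.45 (SE 0.58, limma, adjusted p = 1.0) was 0.19 without RAG-/- replicate 2 and -0.36 by title. The brightest probe set of its widely expressed partner Cox7a2 was nearly level. It read 14.56, 14.60 and 14.60 in the RAG-/- samples and 14.71, 14.66 and 14.60 in the WT samples, where normalization may compress differences. A dimmer Cox7a2 probe set gave -0.48 for pair 3 minus the other arrays.

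Cox6a2, the heart and muscle isoform of subunit VIa, was dimmer, at the 57.5th percentile, with 7.18, 6.89 and 7.33 in the RAG-/- samples and 6.87, 6.94 and 7.73 in the WT samples. It did not share the low value of Cox8b and Cox7a1 on RAG-/- replicate 2, where it was 6.89 and WT replicate 1 was 6.87. Its partner Cox6a1 read 14.24, 14.27 and 14.44 in the RAG-/- samples and 14.33, 14.17 and 14.44 in the WT samples.

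Of the 15 markers of striated muscle 12 were below the 40th percentile, and the mean of the list was 5.95, 5.87 and 6.01 in the RAG-/- samples and 6.08, 6.04 and 6.10 in the WT samples. Of the other 3, the slow myosin gene Myh7 was the brightest at the 84.3rd percentile, with 9.81, 9.76 and 10.08 in the RAG-/- samples and 9.71, 9.83 and 9.98 in the WT samples. Tnnc1, a troponin, was at the 60.2nd percentile, with 7.36, 7.74 and 7.38 in the RAG-/- samples and 7.25, 7.34 and 7.26 in the WT samples. Mylpf, a myosin light chain of fast muscle, was at the 55.7th percentile, with 7.40, 6.33 and 7.12 in the RAG-/- samples and 7.26, 6.76 and 7.25 in the WT samples. Like Cox8b and Cox7a1, Mylpf was lowest on RAG-/- replicate 2 and next lowest on WT replicate 2, while Myh7 and Tnnc1 did not have this order. Brown fat also uses Cox8b and Cox7a1, and 4 of 5 fat markers had a probe set: the uncoupling protein Ucp1 and the adipocyte hormone gene Adipoq were below the filter, and Cidea and Elovl3 passed it. Cidea, a lipid droplet protein, was at the 71.2nd percentile, with 9.17, 8.04 and 7.30 in the RAG-/- samples and 8.82, 9.11 and 8.28 in the WT samples. Elovl3, a fatty acid elongase, was at the 40.1st percentile, with 5.56, 5.94 and 5.75 in the RAG-/- samples and 6.08, 6.78 and 6.26 in the WT samples. The epithelial markers were lowest on RAG-/- replicate 2 as Cox8b and Cox7a1 were. So were the pericyte and smooth muscle markers, with means of 9.0, 7.98 and 8.28 in the RAG-/- samples and 10.04, 8.70 and 8.48 in the WT samples. The means of the fibroblast, endothelial, fat, red cell and striated muscle lists were also lowest on that array, at 9.54, 7.20, 6.14, 5.08 and 5.87. Those of the neuronal, astrocyte and oligodendrocyte lists were highest on it. The part of any of these cells in the Cox8b and Cox7a1 values was not tested.

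**Figure D3:**
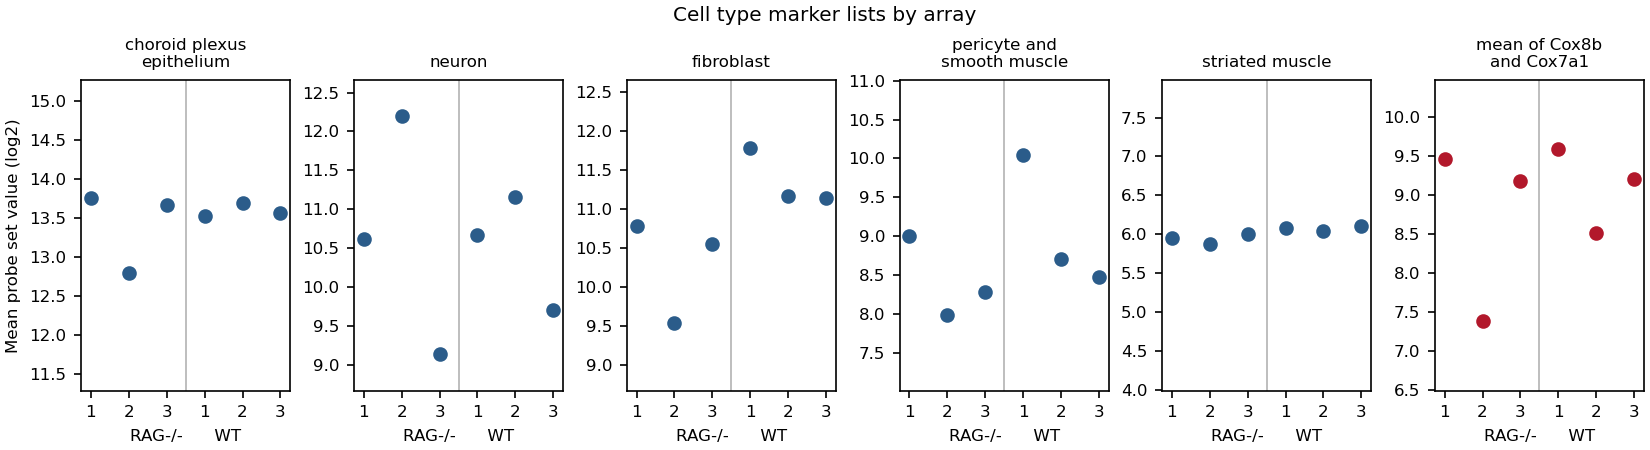
Mean value (log2) of 5 cell type marker lists on each array, and the mean of Cox8b and Cox7a1 for comparison, with RAG-/- arrays at the left and WT arrays at the right of each panel; every vertical axis spans the same log2 range. The mean of Cox8b and Cox7a1 is lowest on RAG-/- replicate 2. So are the epithelial, fibroblast, pericyte and smooth muscle, and striated muscle lists, and the neuronal list is highest there. The striated muscle list lies between 5.87 and 6.10 on all arrays.

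The promoters of both isoform pairs are printed because isoform and partner differ in brightness on these arrays. They are RefSeq sequences of GRCm38.p6, from 250 bases before to 50 after the gene's start, written 5′ to 3′ on the gene's strand, and capitals mark matches to the motifs searched on both strands. The letters searched were CCGGAAG for the core bound by ETS factors. For the YY1 core they were AAGATGGC. For an E-box, a site of muscle regulators among others, they were CAGCTG. For the TATA box that places transcription starts they were TATAAA, and the core of NRF1 was searched as well. No motif overlaps another in its letters within these windows. No entry for Cox6a2 was used.
Cox8b, chr7:140900397-140900696, minus strand: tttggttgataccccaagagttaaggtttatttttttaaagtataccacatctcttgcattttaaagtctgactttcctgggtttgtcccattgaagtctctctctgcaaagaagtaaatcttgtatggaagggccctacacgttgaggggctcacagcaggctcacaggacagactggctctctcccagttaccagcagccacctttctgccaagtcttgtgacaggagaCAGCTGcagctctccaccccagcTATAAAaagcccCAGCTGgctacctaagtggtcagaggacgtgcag
Cox8a, chr19:7217567-7217866, minus strand: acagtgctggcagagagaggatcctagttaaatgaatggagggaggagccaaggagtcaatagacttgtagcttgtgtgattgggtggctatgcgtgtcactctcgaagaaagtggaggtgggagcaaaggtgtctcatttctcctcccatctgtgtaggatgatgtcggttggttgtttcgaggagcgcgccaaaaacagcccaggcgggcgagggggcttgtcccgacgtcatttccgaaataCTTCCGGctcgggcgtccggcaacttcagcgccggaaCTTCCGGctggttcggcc
Cox7a1, chr7:30183921-30184220, plus strand: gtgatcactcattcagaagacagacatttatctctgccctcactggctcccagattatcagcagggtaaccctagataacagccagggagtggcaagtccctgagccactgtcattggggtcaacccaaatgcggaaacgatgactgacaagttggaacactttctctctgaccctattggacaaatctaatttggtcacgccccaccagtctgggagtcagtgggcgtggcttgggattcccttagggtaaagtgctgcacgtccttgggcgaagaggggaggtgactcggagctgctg
Cox7a2, chr9:79759804-79760103, minus strand: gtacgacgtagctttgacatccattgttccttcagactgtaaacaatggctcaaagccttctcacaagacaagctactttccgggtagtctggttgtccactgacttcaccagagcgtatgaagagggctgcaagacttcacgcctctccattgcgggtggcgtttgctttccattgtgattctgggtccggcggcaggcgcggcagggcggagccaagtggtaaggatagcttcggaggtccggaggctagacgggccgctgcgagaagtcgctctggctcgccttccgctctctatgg

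The Cox8b window held the E-box letters at 2 places and a TATA box, with 2 CG dinucleotides. The Cox8a window held the ETS core at 2 places and had 19 CG dinucleotides. None of the 5 motifs was present in the Cox7a1 or the Cox7a2 window, which had 7 and 20 CG dinucleotides. Promoter entries were found for 63 of the 77 member genes. They are set beside all 27025 genes with a promoter entry, whether or not on the array, and a gene counts if any of its promoters held the core. The ETS core, to which the nuclear respiratory factor GABP binds, was in 25.4% of the member genes and 9.93% of all. The NRF1 core was in 6.35% and 1.07%, and the YY1 core in 11.1% and 3.19%. The E-box letters were in 7.94% of the member genes and 18.3% of all, and the TATA box in 11.1% and 15.7%. Both motifs were added after the data had been seen. A match is a string of letters and not a known site.

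The other restricted isoforms gave low or overlapping values. Cox6b2, a testis isoform of subunit VIb, read 9.69, 8.27 and 9.46 in the RAG-/- samples and 9.68, 9.24 and 9.19 in the WT samples, again lowest on RAG-/- replicate 2, against 14.66, 14.56 and 14.70 in the RAG-/- samples and 14.65, 14.54 and 14.69 in the WT samples for its partner Cox6b1. Cox4i2, a lung isoform of subunit IV, read 6.27, 6.03 and 6.63 in the RAG-/- samples and 6.54, 6.73 and 5.45 in the WT samples. Its partner Cox4i1 read 14.64, 14.42 and 14.47 in the RAG-/- samples and 14.64, 14.39 and 14.30 in the WT samples. The groups overlapped for all 4 genes.

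Cox8c, a testis isoform of subunit VIII, read 8.83, 9.13 and 8.96 in the RAG-/- samples and 8.61, 8.61 and 9.30 in the WT samples, at the 75.8th percentile. Cox8a read 11.51, 11.20 and 10.38 in the RAG-/- samples and 10.57, 12.05 and 10.16 in the WT samples, the widest spread among the partners; it differed by 0.10 by description (SE 0.52) and by -0.52 by title (SE 0.48), with an adjusted p of 1.0 in limma in both readings. Leaving out single arrays gave -0.28 (without WT replicate 3) to 0.67 (without WT replicate 2) by description, and -1.06 to -0.11 without the same arrays by title. A dimmer Cox8a probe set differed by -0.33 by description, the opposite sign. Cox7b2, a testis isoform of subunit VIIb, was the dimmest member at the 17.5th percentile, with 4.77, 4.69 and 4.92 in the RAG-/- samples and 5.41, 5.72 and 5.08 in the WT samples. By description it was lower on every RAG-/- array, as were 1.41% of the genes tested. By title the groups overlapped, with a difference of -0.18. Cox7b2 lay under the filter and was not tested.

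Ndufa4, named for complex I but now counted as a subunit of complex IV, read 13.42, 13.01 and 12.79 in the RAG-/- samples and 13.17, 13.27 and 12.76 in the WT samples. Its hypoxia-induced relative Ndufa4l2 was under the filter at the 35.5th percentile, with 5.07, 5.48 and 6.38 in the RAG-/- samples and 5.86, 5.40 and 6.89 in the WT samples. Both were overlapping between the groups.

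No respiratory chain gene was called between RAG-/- and WT choroid plexus in either reading. In limma, 0 of the 139 member probe sets passed an adjusted p of 0.05 by description, where the share of all 27022 probe sets that passed was 0.0%, and 0 of 139 passed by title, again with 0.0% of all. At an unadjusted p of 0.05, 0 of 139 passed by description, against 0.711% of all probe sets. By title 1 of 139 passed, against 1.23% of all: a dim Ndufs8 probe set at the 67.2nd percentile with a difference of -1.27 (unadjusted p = 0.0163), while the brightest Ndufs8 probe set differed by -0.01. With the pair as a block, 0 of 139 passed the adjusted threshold by description (0.0% of all) and 0 of 139 by title (0.0037% of all, 1 probe set). At an unadjusted p of 0.05 with the block, 0 of 139 passed by description, against 2.35% of all probe sets, and 3 of 139 by title, against 4.14%, 1 each of Ndufaf6, Ndufs8 and Cox8a.

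The differences were small as well as uncalled. Over the 74 genes they ranged from -0.45 to 0.43 by description, with a median of 0.014 beside -0.0070 for all genes tested, and from -0.54 to 0.25 by title, with a median of -0.026 beside -0.025. No member differed by more than 0.5 in size by description, against 10.5% of all genes, and Cox8a and Ndufaf6 did by title (2 of 74), against 13.8%. Members were brighter than most genes tested (median percentile 97.6, against 77.1), and normalization may compress differences at the top of the scale. Their median SD over the 6 arrays was 0.26, against 0.41 for all genes tested. The part of brightness in these shares was not tested. The median standard error of a member's difference was 0.27 by description, against 0.36 for all genes. Members were higher in the RAG-/- samples for 43 of 74 genes by description (48.9% of all genes were) and for 29 of 74 by title (46.1% of all), so the side to which the majority leaned depended on how pair 1 was read.

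**Figure D4:**
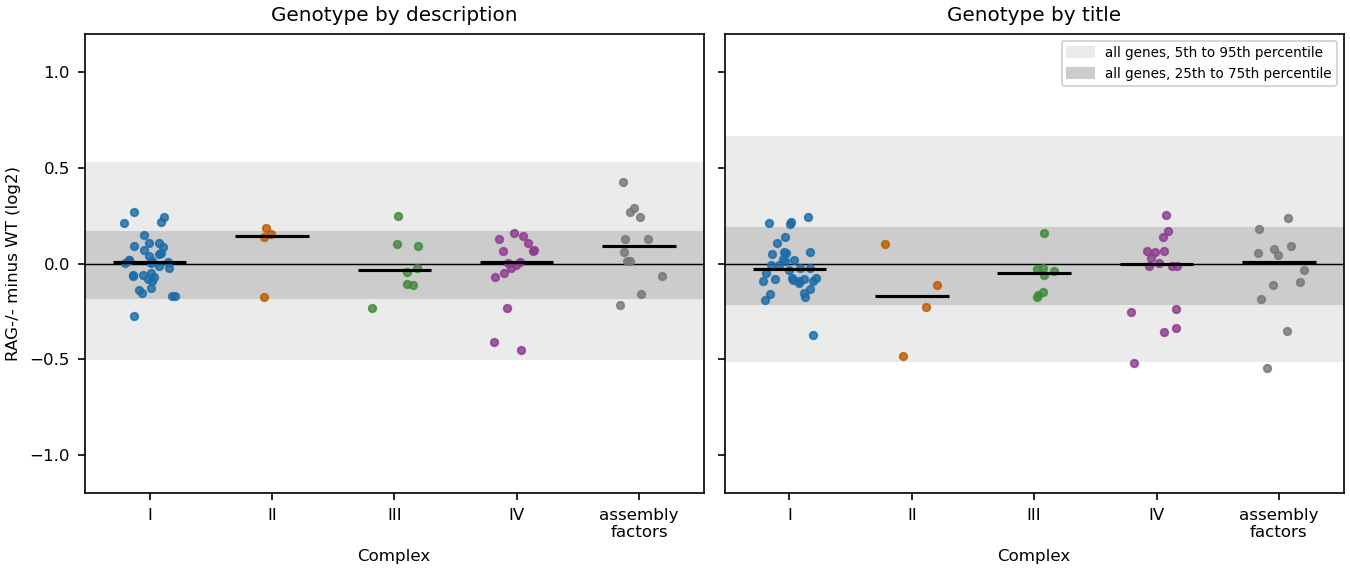
Difference RAG-/- minus WT (log2) of each member gene tested, by complex and for assembly factors, with genotypes by description in the left panel and by title in the right panel; bars mark medians, and grey bands hold the middle of all genes tested. In both readings the medians of the complexes lie between -0.17 and 0.15, inside the inner band (-0.18 to 0.17 by description, -0.21 to 0.18 by title). The complex II median lies toward the upper edge of that band by description (0.15) and toward its lower edge by title (-0.17).

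By complex, the median difference was 0.0072 by description and -0.027 by title for the 34 genes of complex I, and 0.0080 and -0.0039 for the 16 genes of complex IV. Those 16 include Cox7a2l, with the highest difference among them by description (0.16) and -0.01 by title. Complex III, with 8 genes, had medians of -0.036 and -0.050. The 4 genes of complex II had the widest change between readings, with a median of 0.15 by description and -0.17 by title; within pairs 1, 2 and 3 their median difference by description was 0.46, -0.11 and 0.06. Without RAG-/- replicate 1 the median of complex II was -0.056 by description and 0.031 by title, and without WT replicate 3 it was -0.15 and -0.50. For the 12 assembly factors the medians were 0.094 and 0.0072. Cell type marker lists also had different means in the groups, and how far depended on the reading of pair 1. No marker tested passed an adjusted p of 0.05 in limma in either reading. By description the mean of 6 fibroblast markers was 10.79, 9.54 and 10.55 in the RAG-/- samples and 11.79, 11.17 and 11.14 in the WT samples, lower on every RAG-/- array, and with pair 1 turned the groups overlapped. The mean of 9 oligodendrocyte markers by description was 10.19, 11.82 and 11.75 in the RAG-/- samples and 10.67, 10.46 and 9.82 in the WT samples, which overlapped, and by title it was higher on every RAG-/- array. Their part in the members' differences was not tested.

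The members with the smallest p in each direction showed how far single genes went. Ndufa10, an accessory subunit of complex I, read 12.31, 12.67 and 12.25 in the RAG-/- samples and 12.22, 12.07 and 12.13 in the WT samples. Every RAG-/- array was above every WT array, the mean was 12.41 ± 0.23 in RAG-/- and 12.14 ± 0.08 in WT (SD, n = 3 each), and the difference was 0.27 (SE 0.21, limma, adjusted p = 1.0) by description and 0.21 by title. Ndufs1, the largest iron-sulphur subunit of the NADH-oxidising arm, read 12.41, 12.59 and 12.17 in the RAG-/- samples and 12.08, 12.42 and 11.94 in the WT samples. It was higher in the RAG-/- sample of every pair by description, but the groups overlapped, and the difference was 0.24 by description (SE 0.23) and 0.03 by title. Ndufaf5, an assembly factor that modifies a complex I subunit, read 10.59, 10.79 and 9.51 in the RAG-/- samples and 10.06, 10.06 and 9.49 in the WT samples, a difference of 0.43 (SE 0.40) by description and 0.07 by title.

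In the other direction by description stood Cox7a1, described above, and a pair of complex I accessory subunits. Ndufa7 read 12.01, 11.37 and 11.25 in the RAG-/- samples and 12.14, 12.02 and 11.30 in the WT samples, a difference of -0.28 (SE 0.32). By title the difference was -0.19. Over the 5 Ndufa7 probe sets tested, differences by description ran from -0.30 to 0.12, with both signs. Ndufa2 read 13.26, 12.95 and 13.19 in the RAG-/- samples and 13.28, 13.28 and 13.27 in the WT samples, a difference of -0.14 (SE 0.17) by description and -0.13 by title. The RAG-/- arrays of Ndufa2 were all below the WT arrays after quantile normalization, and the groups overlapped as deposited and with arrays set to a common median.

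By title the lowest p among lower members belonged to Ndufaf6, a complex I assembly factor, with 11.02, 9.55 and 10.32 in the RAG-/- samples and 10.31, 10.37 and 10.41 in the WT samples as described. With pair 1 turned, its means were 10.06 ± 0.44 in RAG-/- and 10.60 ± 0.37 in WT (SD, n = 3 each), a difference of -0.54 (SE 0.33, limma, adjusted p = 1.0), and by description the difference was -0.07. Sdhc followed, with a difference of -0.48 by title (SE 0.34) and -0.17 by description. Ndufaf8, also a complex I assembly factor, read 12.06, 10.94 and 11.91 in the RAG-/- samples and 11.86, 11.67 and 12.03 in the WT samples, a difference of -0.35 by title and -0.22 by description.

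Among higher members by title, after Ndufa10, came Sdhaf3 and Cox5a. Sdhaf3, an assembly factor of complex II, read 9.23, 9.36 and 9.17 in the RAG-/- samples and 9.49, 8.94 and 9.14 in the WT samples as described, a difference of 0.24 by title and 0.06 by description. Cox5a, a complex IV subunit found in all tissues, read 13.80, 14.07 and 14.02 in the RAG-/- samples and 13.90, 13.72 and 14.06 in the WT samples, a difference of 0.14 by title and 0.07 by description. Each of these differences was smaller than its standard error.

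The arrays of the groups did not overlap for 4 of 74 members by description (5.41%), against 3.1% of all genes tested. These were Ndufa10, Ndufaf2 and Sdhaf2, higher in the RAG-/- samples (3 of 74, against 1.69% of all genes), and Ndufa2, lower (1 of 74, against 1.41%). Ndufaf2, a complex I assembly factor, read 8.99, 8.91 and 9.02 in the RAG-/- samples and 8.82, 8.34 and 8.88 in the WT samples, and Sdhaf2, which attaches the flavin to Sdha, read 9.98, 10.10 and 10.25 in the RAG-/- samples and 9.65, 9.92 and 9.95 in the WT samples. With arrays set to a common median, 2 of the 4 remained apart, Ndufa10 and Sdhaf2. This held for their brightest probe sets only. In the main normalization the dimmer probe set of each overlapped between the groups, with differences by description of 0.23 for Ndufa10 and -0.0057 for Sdhaf2. By title only Ndufaf6 did not overlap (1 of 74, 1.35%), against 4.73% of all genes, and it overlapped with a common median. It was lower, as 2.53% of all genes were, and 0 of 74 members were higher without overlap, against 2.2% of all.

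Within pairs, 19 of 74 members kept the same sign in all 3 pairs by description, against 21.1% of all genes, with 13 higher (9.75% of all) and 6 lower (11.3% of all) in the RAG-/- sample. By title 16 of 74 did, against 25.6% of all genes, with 7 higher (10.6% of all) and 9 lower (15.0% of all). Pair 2 gave 36 higher and 38 lower members, against 6421 higher and 7103 lower of all 13537 genes tested. Pair 3 gave 42 higher and 29 lower members, against 6297 and 7226 of all, the rest being equal. Pair 1 gave 46 higher and 26 lower members by description, against 7183 and 6344 of all. By title the sides are exchanged, to 26 higher and 46 lower members.

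The members also differed between pairs. As a median over the 74 genes, an array's deviation from each gene's own mean was 0.14, -0.08 and 0.00 for RAG-/- replicates 1 to 3 and 0.06, -0.05 and 0.01 for WT replicates 1 to 3, so both arrays of pair 1 were above and both of pair 2 below. Over all genes tested the medians were 0.02, -0.04 and 0.03 for RAG-/- and -0.01, -0.01 and 0.04 for WT, also negative on both arrays of pair 2. RAG-/- replicate 1 was the highest of the 6 arrays for 21 of 74 members, against 16.2% of all genes, and RAG-/- replicate 2 was the lowest for 20 of 74, against 31.1%, and the highest for 12 of 74, against 25.3%. The lowest array was WT replicate 2 for 20 of 74 members, against 14.8% of all genes, and WT replicate 3 for 19 of 74, against 14.4%. Both arrays of pair 1 were above the other 4 for 13 of 74 members (17.6%), against 8.75% of all genes, and below them for 1 of 74, against 8.14%. Both arrays of pair 2 were below the other 4 for 21 of 74 members (28.4%), against 17.0% of all genes, and above them for 3 of 74, against 13.0%. For pair 3 the counts were 20 below (27.0%), against 17.0% of all genes, and 18 above (24.3%), against 21.4%. In a limma fit with genotype by description, the F test of the title code passed an adjusted p of 0.05 for 0 of 139 member probe sets (0.0% of all) and an unadjusted p of 0.05 for 56 of 139, against 24.2% of all.

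**Figure D5:**
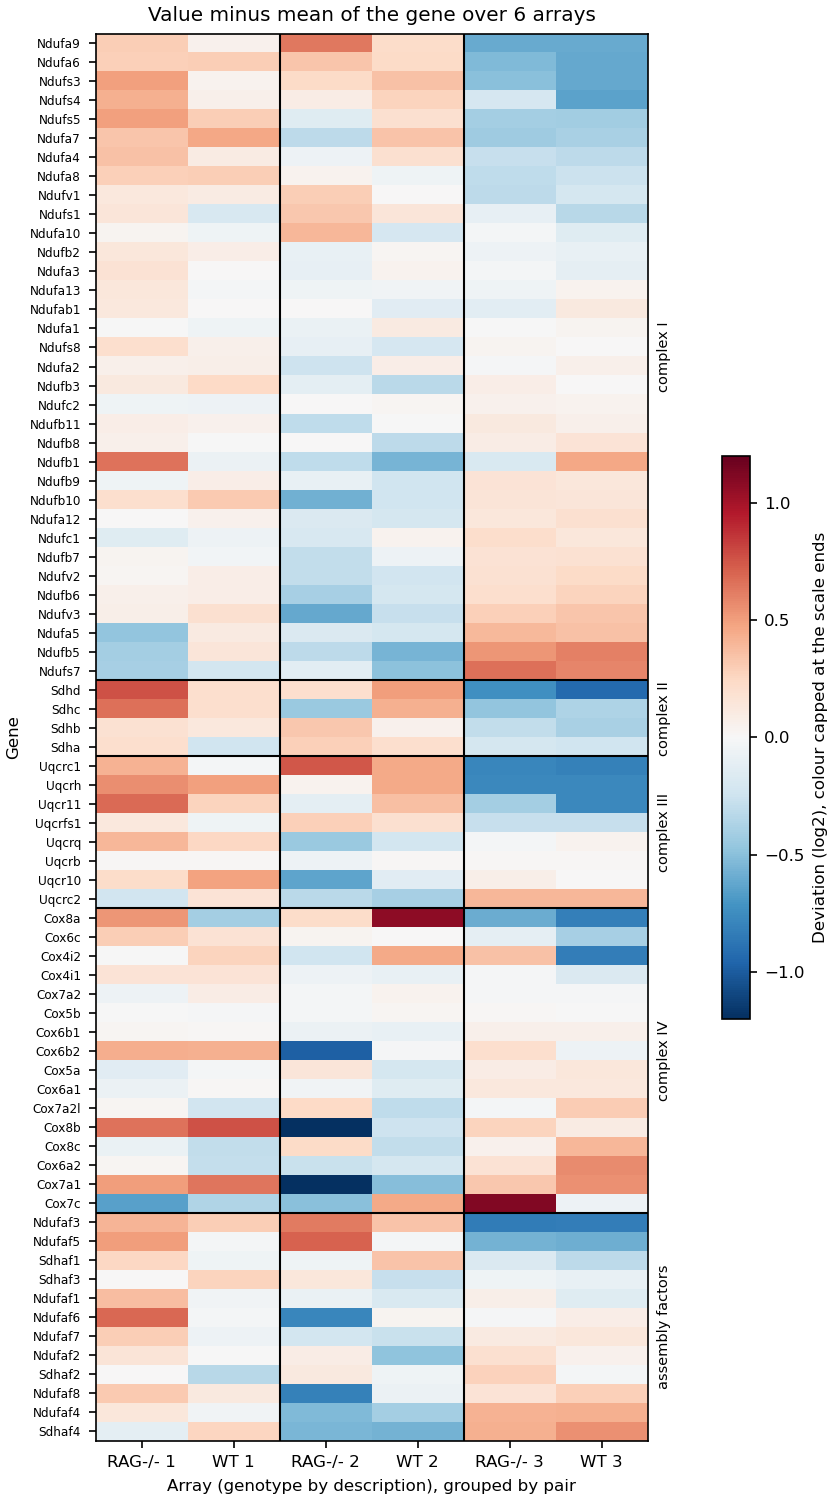
Deviation of each member gene from its own mean over the 6 arrays (log2, colour, capped at the ends of the scale), with genes in rows by complex and arrays in columns grouped by pair. Both arrays of pair 3 are low for Sdhd, Uqcrc1 and Uqcrh, and high for Ndufs7 and Ndufb5.

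Members low and members high in pair 3 were both found, in the shares given above. Uqcrc1, a core subunit of complex III, read 13.15, 13.48 and 11.95 in the RAG-/- samples and 12.72, 13.19 and 11.93 in the WT samples, and had the smallest adjusted p of any member for the title code (limma F test, adjusted p = 0.0727). Uqcrh, the hinge subunit of complex III, read 13.32, 12.80 and 11.99 in the RAG-/- samples and 13.25, 13.22 and 11.98 in the WT samples. Both arrays of pair 3 were lowest for both genes. The brightest probe set of Uqcrc2, the other core subunit, was highest in pair 3, with 13.29, 13.19 and 13.92 in the RAG-/- samples and 13.68, 13.12 and 13.92 in the WT samples. These genes were singled out after their values had been seen. Their promoters are shown with the same marks.
Uqcrc1, chr9:108936398-108936697, plus strand: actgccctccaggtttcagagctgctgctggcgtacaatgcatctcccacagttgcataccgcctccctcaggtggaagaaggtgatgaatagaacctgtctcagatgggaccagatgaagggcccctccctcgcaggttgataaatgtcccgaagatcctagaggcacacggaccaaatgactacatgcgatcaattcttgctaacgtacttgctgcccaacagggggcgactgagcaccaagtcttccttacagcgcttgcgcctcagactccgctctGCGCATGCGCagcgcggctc
Uqcrh, chr4:116075021-116075320, minus strand: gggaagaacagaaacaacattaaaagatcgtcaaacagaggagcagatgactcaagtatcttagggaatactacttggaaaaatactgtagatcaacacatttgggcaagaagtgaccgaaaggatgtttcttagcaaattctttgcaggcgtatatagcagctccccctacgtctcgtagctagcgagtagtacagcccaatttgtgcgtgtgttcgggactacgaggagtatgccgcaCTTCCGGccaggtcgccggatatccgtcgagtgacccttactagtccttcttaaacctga

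The Uqcrc1 window held the NRF1 core, as did 3 other member promoters, those of Cox6a1, Ndufaf4 and Ndufaf5. The Uqcrh window held the ETS core and no other of the motifs. Both have 15 CG dinucleotides.

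All of complex II was lower in pair 3 on average: the mean of pair 3 minus the mean of the other arrays was between -1.25 and -0.33 for its 4 genes, with a median of -0.57, beside 0.05 for all genes tested. Sdhd, a membrane anchor, read 12.43, 11.87 and 10.93 in the RAG-/- samples and 11.86, 12.17 and 10.74 in the WT samples. Sdhb, the iron-sulphur subunit, read 13.23, 13.36 and 12.74 in the RAG-/- samples and 13.17, 13.09 and 12.65 in the WT samples. Both arrays of pair 3 were below all others for these genes and not for Sdha or Sdhc. The median was -0.20 for complex III, 0.03 for complex I, 0.14 for complex IV and 0.12 for assembly factors.

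The direction in pair 3 often depended on the probe set. Of the 40 member genes with several probe sets tested, 26 had probe sets on both sides in pair 3. The brightest probe set of Ndufs7, an iron-sulphur subunit of complex I, was highest in pair 3, with 12.14, 12.40 and 13.20 in the RAG-/- samples and 12.31, 12.04 and 13.12 in the WT samples. Its other probe set was lowest there, with 12.47, 12.52 and 11.40 in the RAG-/- samples and 12.32, 12.54 and 11.14 in the WT samples. Ndufb5, an accessory subunit, did the same: 12.43, 12.52 and 13.37 in the RAG-/- samples and 12.99, 12.28 and 13.44 in the WT samples for the brightest, against 12.75, 12.97 and 12.08 in the RAG-/- samples and 12.56, 12.77 and 12.08 in the WT samples for the other. For Sdhd the dimmer probe set gave 0.16 for pair 3 minus the others, and the brighter one -1.25. The other probe set of Uqcrc2 was lowest in pair 3, with 13.65, 13.52 and 13.14 in the RAG-/- samples and 13.45, 13.27 and 13.12 in the WT samples. Uqcrc1 had 1 probe set, and both probe sets of Uqcrh were lowest in pair 3. Between genotypes by description, 22 of the same 40 genes had probe sets with differences of both signs.

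Other genes of oxidative metabolism, from lists drawn up with the members, also gave no call between genotypes in either reading, with or without the pair as a block. Of 15 ATP synthase genes 6 were higher and 9 lower in the RAG-/- samples by description (median -0.02), and 3 higher and 12 lower by title (median -0.09). Of 12 genes of the tricarboxylic acid cycle 10 were higher and 2 lower by description (median 0.10), and 5 higher and 7 lower by title (median -0.01). Cyc1 and Cycs, cytochromes c1 and c, differed by 0.10 and -0.06 by description. Of 21 assembly factors outside the prefixes 13 were higher and 8 lower by description (median 0.11), and 7 higher and 14 lower by title (median -0.17).

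Among 11 regulators of mitochondrial genes, 4 were higher and 7 lower by description (median -0.08) and 3 higher and 8 lower by title (median -0.07). Ppargc1a, a coactivator of mitochondrial biogenesis, read 10.58, 10.72 and 11.70 in the RAG-/- samples and 10.89, 10.59 and 11.42 in the WT samples, with both arrays of pair 3 highest. Gabpa, the DNA-binding subunit of GABP, read 10.11, 9.63 and 10.74 in the RAG-/- samples and 10.52, 10.19 and 10.88 in the WT samples, a difference of -0.37 (limma, adjusted p = 1.0).

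Of 13 glycolytic genes 9 were higher and 4 lower by description (median 0.11), and 3 higher and 10 lower by title (median -0.08). Both arrays of pair 3 were below the other 4 for 9 of these 13 genes, against 17.0% of all genes, and none was above, against 21.4% of all, with a median of -0.75 for pair 3 minus the others. Against the same shares, 6 of 15 ATP synthase genes were below and 3 above, and 2 of 12 genes of the tricarboxylic acid cycle were below and 2 above. The neuronal markers, given above, were also lowest in pair 3, for 7 of 8 genes, and their part in these pair values was not tested.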

How the data were processed

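The values are array intensities on a linear scale for 45101 probe sets, 64 of them controls; how the authors made these deposited intensities is not given in the sources used here. Leaving out 2% at each end, every array had a mean of 500. The upper quartiles differed by 0.23 on the log2 scale, over a limit of 0.2, so log2(intensity + 16) was quantile normalized. The lowest 40% of probe sets were left out, and limma 3.58.1 in R 4.3.3 (lmFit, eBayes with trend, Benjamini-Hochberg over 27022 probe sets, two-sided) was fitted on all 6 arrays in both readings, after being tested on simulated data. The labels do not say that samples of a group came from separate animals, so the spread behind each p may be technical; 6 arrays limit the precision.

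Same-pair samples deviated together (correlations 0.29, 0.39 and 0.58), and other pairings gave -0.42 to 0.01, so the title code was also fitted as a block. The 30 named genes are tissue isoforms and partners, the 3 smallest p per direction and reading, and the brightest and dimmest of each complex; those named for pairs, non-overlap or pathway roles were chosen after their values were seen. Members and lists were chosen with earlier results of these data known. Symbols come from the platform annotation, and all 77 matched GRCm38.p6. Alternatives covered scaling, pseudocounts of 1 and 64, the filter, array weights, single arrays, pair 1 left out, and the mean of a gene's probe sets.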

Additional observations from a re-analysis of the deposited data

How the results depend on the processing

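No member probe set passed the adjusted threshold under any alternative in either reading. With the replicate block, the count over all probe sets was 0 by description and 1 by title, and 0 of 139 members passed. The medians were as without the block (complex I 0.0072 by description). This was fixed in advance, because each pair holds 1 sample of each genotype. By title 2 of all probe sets passed with array weights; leaving out single arrays gave 0 to 4 by description (4 without RAG-/- replicate 2) and 0 by title. Leaving out single arrays, the median ranged from -0.038 to 0.078 for complex IV and from -0.017 to 0.22 for assembly factors by description, and from -0.025 to 0.083 for complex IV by title, each highest without RAG-/- replicate 2. For complex II it ranged from -0.15 to 0.33 by description (0.33 without RAG-/- replicate 3) and from -0.50 to 0.031 by title, and for complex III from -0.12 to 0.10 by description and from -0.17 to 0.057 by title. By title, arrays at a common median gave -0.14 for complex I and -0.10 for complex IV, beside -0.05 for all genes, and array weights gave 0.077 for complex IV. Members with 1 sign in all pairs numbered 11 as deposited by description, against 19 (20.5% and 21.1% of all genes), and 9 at a common median by title, against 16 (24.0% and 25.6% of all). Pair 1 was below the other arrays for 0 members as deposited and 0 at a common median (8.39% and 4.34% of all genes), pair 2 below for 33 at a common median (21.3% of all), and pair 2 above for 0 as deposited and 0 at a common median (15.2% and 10.1% of all). The block and the filter cannot change a gene's difference, so values under them could not move. For the 26 named genes tested, 738 of 754 values under alternatives stayed within the spread between replicates and 16 did not; 83 turned sign, and none was called. The cause of these shifts was not tested. Dim probe sets limit what small differences could be seen, and so may normalization at the top of the scale.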

Other observations

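The name ending of a probe set went with its value in pair 3. Among tested member probe sets with the plain ending "at", 30 of 67 (44.8%) were below the other arrays in both arrays of pair 3, against 16.2% of all such probe sets, with a median of -0.28 for pair 3 minus the others, against 0.05 over all 20185. Among the 36 with the ending "a_at", 6 (16.7%) were below, against 25.9% of all, and the median was 0.18, against -0.10 over all 3391. With the ending "s_at" 4 of 12 were below, against 18.7% of all, with a median of 0.0054, against 0.066. With the ending "x_at" 5 of 24 were below, against 9.45% of all, with a median of 0.014, against 0.32. Probe sets of both kinds can belong to 1 gene, as for Ndufs7 and Ndufb5, where the "a_at" probe set was highest and the "at" probe set lowest in pair 3. The endings and values are given as a description.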
